A study of Mus musculus with 6 samples.

Results

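The genes described here encode the enzymes and proteins of fatty acid oxidation, fatty acid synthesis, fatty acid uptake and activation, and lipid storage. They are 43 genes chosen by name from the 17831 genes of the deposited count table. The rule names genes and uses no measured value, but the list was chosen with earlier results of these data known. Of these, 19 act in oxidation, 10 in synthesis, desaturation and elongation, 8 in uptake and activation, and 6 in storage and lipolysis. All 43 passed the filter on low counts, so every member was tested.

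RNAseq was performed on lung group 2 innate lymphoid cells (ILC2s), the tissue-resident lymphocytes that secrete IL-5 and IL-13, in 3 WT libraries (genotype given as CB57BL/6) and 3 SIRPα KO libraries (SIRPalphatm1Ynliu/J). SIRPα is the inhibitory receptor for CD47, and the KO allele is carried by all cells of the animal, not by ILC2s alone. Mice of both groups were 6 to 8 weeks old and were given rmIL-33 into the nose (0.5 μg, on 3 days). On day 4, ILC2s were taken from the lungs by sorting for CD45, CD127 and ST2 and against lineage markers, and were kept in medium with rmIL-2 plus rmIL-7, for 18 h according to the results text or 24 h according to the legend. The comparison asks how the absence of SIRPα relates to the metabolic genes of activated ILC2s.

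To be used, a fatty acid is first joined to coenzyme A. For oxidation in mitochondria, the long-chain acyl group is passed to carnitine by CPT1, moved across the inner membrane and returned to coenzyme A by CPT2. It is then shortened in a spiral of dehydrogenation, hydration, a further dehydrogenation and thiolysis, and the electrons of the first step pass through the electron transfer flavoprotein to ubiquinone. Synthesis runs in the cytosol from citrate through ATP citrate lyase, acetyl-CoA carboxylase and fatty acid synthase, and malonyl-CoA, the product of the carboxylase, inhibits CPT1. Surplus acyl groups are esterified to triglyceride and kept in lipid droplets. Activated lung ILC2s are known to take up external lipid and to form such droplets, with Pparg and Dgat1 among the genes involved.

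The libraries held 13980499 to 19051507 reads on genes. Values are given as CPM, reads per 1000000 reads of a library after TMM scaling, and lists of 3 values follow the order of replicates 1, 2 and 3. Sirpa itself had 149, 96 and 73 reads in WT and 48, 85 and 28 reads in SIRPα KO, so that the log2 fold change came to -1.12 (standard error, SE, 0.42, edgeR adjusted p = 0.115). Its mRNA was thus low in both groups and still counted in the KO. The ILC2 markers Gata3 (846 to 1078 CPM over the 6 libraries), Il1rl1 (376 to 937 CPM) and Il5 (8448 to 13241 CPM) were well covered in every library. Of the 8 markers on that list, all in the table, Thy1 was the lowest, at 12.1, 13.1 and 23.0 CPM in WT and 3.6, 3.8 and 4.2 CPM in SIRPα KO, and it fell by 2.06 on the log2 scale (edgeR adjusted p = 0.0139). The other markers of the list were not lower. Il5 (log2 fold change 0.49, edgeR adjusted p = 0.0138) and Ptprc (0.90, 0.0484) were called higher. Il1rl1 (0.70), Il7r (0.60) and Il13 (0.34) were higher without overlap but not called, and Gata3 (0.097) and Rora (0.095) overlapped between groups. Library codes in the labels link WT replicate 1 (37) to replicate 2 (37V1) and SIRPα KO replicate 2 (44) to replicate 3 (44V1), and the series text speaks of duplicates where 3 libraries a group are labelled. Nothing states that the libraries come from separate mice or cultures, so n counts libraries, and SDs and p values measure only the spread between them. Should a shared code mean a shared sample, only 2 samples stand behind each group. Over 9146 genes, the SD of the log2 difference between WT replicates 1 and 2 was 0.43, against 0.60 and 0.61 for the other WT pairs. In SIRPα KO the pair with a shared code (0.26) stood between the other pairs (0.25 and 0.29). Spread between replicates, as the biological coefficient of variation, came to 38% for WT and 15.2% for SIRPα KO.

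Across the 43 genes, 10 had an adjusted p under 0.05 from edgeR's quasi-likelihood test, or 23.3%, where 11.7% of the 13623 genes tested passed. Fasn, Acaca, Scd2, Acsl4, Acss1 and Acad9 rose in SIRPα KO, and Acadl, Acadm, Acaa2 and Acaa1a fell. In all tested genes, 5.94% rose and 5.81% fell. At an unadjusted p under 0.05 there were 22 members, 12 of them higher and 10 lower, where 32% of all tested genes passed. The libraries of the groups did not overlap for 26 members, where 42.8% of all tested genes did not overlap. The median log2 fold change was 0.0012 over the members and -0.025 over all tested genes.

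These calls needed every SIRPα KO library. Without SIRPα KO replicate 1, 2 or 3, no member was called by edgeR, and 19, 20 and 20 members were at an unadjusted p under 0.05. Over all tested genes only 16, 17 and 17 were then called, beside 1600 with every library, so the loss was not particular to the members. The lowest adjusted p among the 10 called members was then 0.0955, 0.0991 and 0.0791 from edgeR. With libraries of one code summed, which leaves 2 against 2, no member was called and 21 were at an unadjusted p under 0.05, with adjusted p values of 0.130 to 0.184 for the 10 genes from edgeR. That fit called 10 of all 14581 genes it tested. The share of all genes at an unadjusted p under 0.05 is not given for these fits. It was 32% with every library, so the unadjusted counts of members cannot be read as particular to them. Without WT replicate 1, 2 or 3, the number of called members was 7, 13 and 18. Over all genes, 1111 of 14078, 2309 of 14150 and 2606 of 14143 were called in those fits. DESeq2 called 19 members, and 3170 of 12977 genes in all. The 10 called members kept their direction under each of these fits.

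The length of the transcript also ran with the fold change. For well-covered genes (mean log2 CPM of 3 or more) split into deciles of principal transcript length, the decile medians of the log2 fold change ran from -0.57 for the shortest to 0.46 for the longest. Members of synthesis had a median length of 4612.5 bases and members of oxidation of 1916 bases, so the split between these groups runs with length. A fit with an offset for length and GC content, which estimates that trend from 9001 well-covered genes, is therefore given beside each group. In that fit 8 members were called, 5 higher and 3 lower, where 8.46% of all tested genes passed, and 6 of them were among the 10 above, namely Acaca, Fasn, Scd2, Acss1, Acadl and Acadm. Decr1 and Dgat2 were called with the correction but had adjusted p values of 0.0600 and 0.0508 from edgeR without it.

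**Figure D1:**
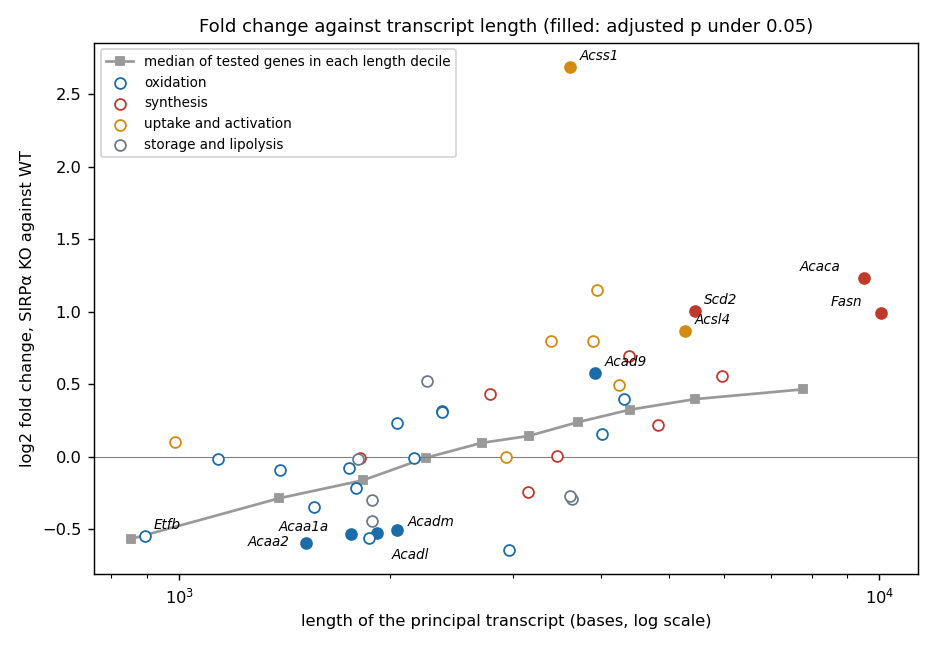
Log2 fold change of each member, SIRPα KO against WT, against the length of its principal transcript in bases on a log axis, with filled points for an adjusted p under 0.05. The grey line joins the medians of the length deciles of well-expressed genes, from -0.57 to 0.46, and Acaca, Fasn and Scd2 lie above it while Acaa2, Acaa1a, Acadl and Acadm lie below it.

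Seen as summed reads, the groups of members moved in different directions. The 10 synthesis members summed to 1152, 1199 and 899 CPM in WT and to 1688, 1709 and 1633 CPM in SIRPα KO. All KO libraries lay above all WT libraries. The 19 oxidation members summed to 2032, 2003 and 1951 CPM in WT and 1887, 1872 and 1803 CPM in SIRPα KO, a smaller difference, in the other direction and also without overlap. The ratio of the synthesis sum to the oxidation sum was 0.567, 0.598 and 0.461 in WT and 0.894, 0.913 and 0.906 in SIRPα KO. These sums are set by the most abundant members and are given as a description with no test. They are not corrected for length and GC content. With that correction the median log2 fold change was 0.16 for the synthesis members and 0.015 for the oxidation members.

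**Figure D2:**
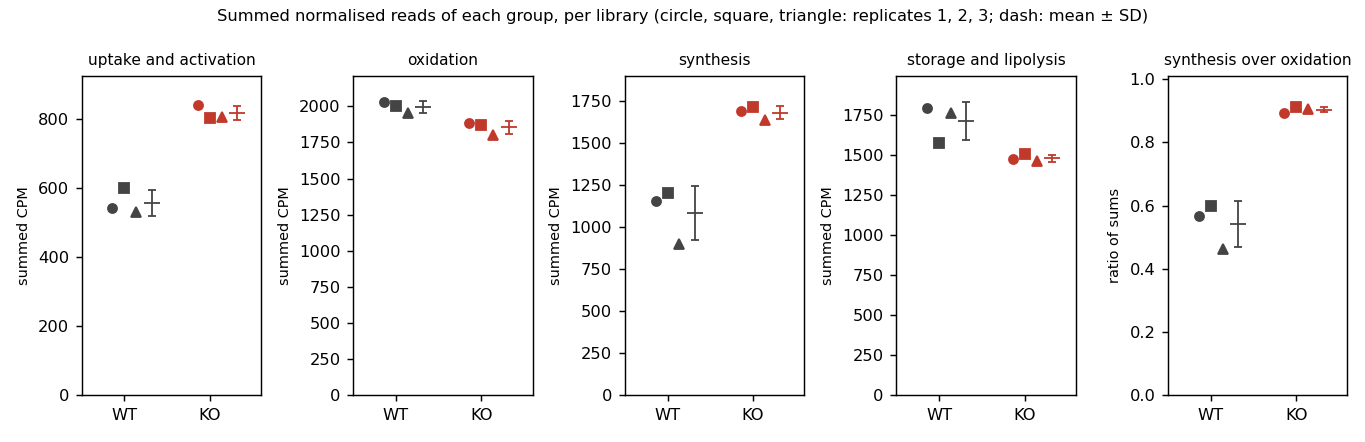
Summed CPM of the members of each group in each library, with the ratio of synthesis to oxidation on the right; symbols are replicates 1, 2 and 3 and the dash is the mean ± SD. The ratio, not corrected for length and GC content, lies between 0.461 and 0.598 in WT and between 0.894 and 0.913 in SIRPα KO.

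The enzymes of the synthesis pathway were higher in SIRPα KO at each of its steps from citrate, and the carboxylase and the synthase passed the test. Of the 10 synthesis members, 3 were called, Acaca, Fasn and Scd2, all of them higher. In all, 8 of the 10 had a log2 fold change above 0 and the median was 0.50. With the length and GC correction, the same 3 genes were called, 6 of 10 were above 0 and the median was 0.16.

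Acaca encodes acetyl-CoA carboxylase, which makes malonyl-CoA and commits carbon to fatty acid synthesis (ENSMUSG00000020532.18, mm10 chr11:84129672-84401651). It was at 20.4, 30.2 and 22.0 CPM in WT and at 55.5, 59.1 and 55.7 CPM in SIRPα KO, so that the lowest KO library was well above the highest WT library. The log2 fold change was 1.23 (SE 0.18, edgeR adjusted p = 0.0138), and 0.74 with the length and GC correction (adjusted p = 0.0342). A transcript of another gene, Gm5182, is 99.2% identical to Acaca over 6118 bases, and reads could be shared with it. Gm5182 had 3 to 38 reads per library where Acaca had 333 to 1126. The gene of the other carboxylase, Acacb, has no column under that name in the count table.

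Fasn encodes fatty acid synthase, which builds palmitate from acetyl-CoA and malonyl-CoA (ENSMUSG00000025153.9, chr11:120805846-120824547, minus strand). Its level was 250.3, 296 and 189 CPM in WT and 502, 503 and 458 CPM in SIRPα KO. The group means were 245 ± 53.6 and 488 ± 25.8 CPM (SD, n = 3), close to a doubling, and the groups did not overlap. The log2 fold change was 0.99 (SE 0.16, edgeR adjusted p = 0.0158) and 0.78 with the correction (adjusted p = 0.0046). The window of 250 bases before its transcription start in RefSeq (GRCm38.p6, chr11:120824548-120824797, read on the minus strand) is shown because Fasn had the lowest adjusted p of the members in the corrected fit. Capitals mark CCAAT, the binding sequence of NF-Y, on either strand, with 3 matches of which a pair shares bases.
Fasn: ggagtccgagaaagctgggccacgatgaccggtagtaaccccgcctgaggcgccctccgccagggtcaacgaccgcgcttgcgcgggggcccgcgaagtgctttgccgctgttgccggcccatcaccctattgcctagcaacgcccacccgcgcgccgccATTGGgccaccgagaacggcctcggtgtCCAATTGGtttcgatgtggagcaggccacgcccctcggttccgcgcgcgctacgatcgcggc

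CCAAT occurred in 33.8% of the 32851 promoter windows of this length and in 17 of the 37 windows of members, which cover 34 of the 43 genes. Of the other called synthesis genes, Acaca has a window without CCAAT, and no window of Scd2 was used. The sterol response letters TCACNCCAC were found in 1 member, Acsl1, against 1.05% of all windows, and the E-box CACGTG in Elovl5 and Lipe, against 6.02%. A direct repeat read by PPAR receptors, AGGTCANAGGTCA, was in none of the members' windows and in 0.0335% of all windows. Both strands were searched, and a match is a description of the letters only.

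Scd2 and Scd1 encode stearoyl-CoA desaturases, which place a double bond in saturated acyl-CoA. Scd2 was at 43.6, 59.1 and 34.0 CPM in WT and at 92.7, 92.6 and 88.8 CPM in SIRPα KO, without overlap. The log2 fold change was 1.0 (SE 0.20, edgeR adjusted p = 0.0252) and 0.64 with the correction (adjusted p = 0.0294). Without WT replicate 1 its adjusted p was 0.0551 from edgeR. Scd1 was close to the counting floor, with 0, 16 and 16 reads in WT and 8, 9 and 25 reads in SIRPα KO, so that Scd2 supplied nearly all desaturase reads of this kind in both groups.

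Acly encodes ATP citrate lyase, which releases cytosolic acetyl-CoA from citrate. It was at 406, 373 and 219 CPM in WT and at 530, 558 and 528 CPM in SIRPα KO. The groups did not overlap, but WT replicate 3 stood low and the spread in WT was wide, and the log2 fold change of 0.69 had an edgeR adjusted p of 0.0700 (0.0583 with the correction). Without WT replicate 3 it was 0.47 and was called (edgeR adjusted p = 0.0054). Elovl6, which lengthens palmitate, was at 9.9, 19.1 and 16.0 CPM in WT and at 22.2, 23.5 and 20.3 CPM in SIRPα KO. The difference on the log2 scale was 0.56 (edgeR adjusted p = 0.177) and -0.011 with the correction. Elovl5, an elongase of polyunsaturated acyl chains, had a log2 fold change of 0.43 (edgeR adjusted p = 0.0637, and 0.101, 0.0325 and 0.0299 without WT replicates 1, 2 and 3). With the correction Elovl5 was at 0.16 (adjusted p = 0.268). Values near 0 were found for Elovl1 (-0.0071), the elongase of very long saturated chains, and Fads1 (0.0012), a desaturase of polyunsaturated chains, and Fads2, which acts in the same series, was at -0.25. The difference was thus largest at the carboxylase, the synthase and Scd2, and the later enzymes of polyunsaturated chains were not called.

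**Figure D3:**
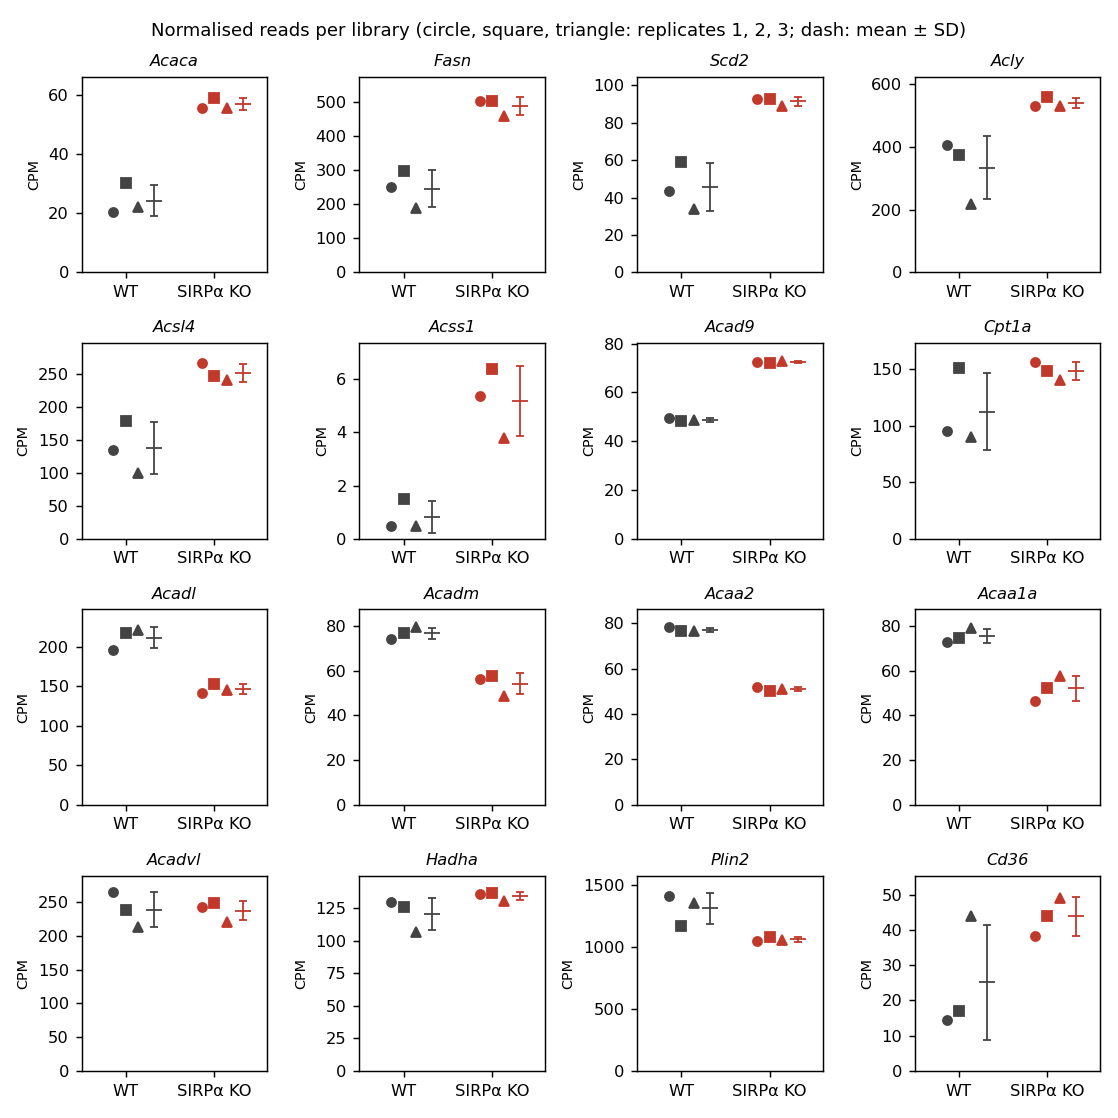
CPM in each library for 16 members, from synthesis (Acaca, Fasn, Scd2, Acly), activation, oxidation and storage, with replicates 1, 2 and 3 as symbols and the mean ± SD as a dash; each axis starts at 0. The SIRPα KO libraries lie above every WT library for Acaca, Fasn and Scd2, below every WT library for Acadl, Acadm, Acaa2 and Acaa1a, and among the WT libraries for Acadvl.

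Oxidation gave a mixed picture. Of its 19 members, 5 were called, with Acadl, Acadm, Acaa2 and Acaa1a lower and Acad9 higher in SIRPα KO. The carnitine palmitoyltransferases, the very long-chain dehydrogenase and the trifunctional protein were not called. There were 13 members with a log2 fold change below 0 and 6 above, with a median of -0.091. With the length and GC correction 3 were called, Acadl, Acadm and Decr1, all lower. Over all 19 members, 10 were then above 0 and 9 below, with a median of 0.015.

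Neither carnitine palmitoyltransferase was called with all libraries. Cpt1a, the carnitine palmitoyltransferase that malonyl-CoA inhibits, was at 95.6, 151 and 89.9 CPM in WT and at 156, 148 and 140.1 CPM in SIRPα KO. WT replicate 2 was as high as the KO libraries, so the groups overlapped, and the log2 fold change was 0.40 (SE 0.20, edgeR adjusted p = 0.211) and 0.14 with the correction. Without WT replicate 2, Cpt1a was called, at 0.67 (edgeR adjusted p = 0.0206). Cpt2, which returns the acyl group to coenzyme A inside, was at 29.8, 28.4 and 20.5 CPM in WT and 32.9, 36.7 and 28.2 CPM in SIRPα KO, also with overlap (log2 fold change 0.31, edgeR adjusted p = 0.316). Slc25a20, the carrier between them and not one of the 43, had a log2 fold change of -0.074 (edgeR adjusted p = 0.712).

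The acyl-CoA dehydrogenases, which open each turn of the spiral and differ in the chain length they accept, did not move together. Acadl, the long-chain dehydrogenase (ENSMUSG00000026003.5, chr1:66830839-66863277, minus strand), was at 196, 218 and 221 CPM in WT and at 141, 153 and 145 CPM in SIRPα KO. All KO libraries were below all WT libraries, with a log2 fold change of -0.53 (SE 0.11, edgeR adjusted p = 0.0252) that was -0.60 with the correction (adjusted p = 0.0120). Acadm, the medium-chain dehydrogenase (ENSMUSG00000062908.12, chr3:153922357-153944632), was at 74.4, 76.7 and 79.5 CPM in WT and at 56.2, 57.6 and 48.8 CPM in SIRPα KO, again without overlap. Its log2 fold change was -0.50 (SE 0.13, edgeR adjusted p = 0.0455) and -0.54 with the correction (adjusted p = 0.0314), and leaving out WT replicate 1 or 2 gave adjusted p values of 0.0692 and 0.0580. Acads, the short-chain dehydrogenase, had a log2 fold change of -0.56 without overlap (edgeR adjusted p = 0.0587), which was -0.19 with the correction.

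Acadvl, the very long-chain dehydrogenase of the inner membrane, stood in contrast at 265, 238 and 214 CPM in WT and 243, 249 and 221 CPM in SIRPα KO. The groups overlapped and the log2 fold change was -0.0096 (SE 0.12, edgeR adjusted p = 0.964). Its exons share 1151 bases with Dvl2 on the other strand, and nothing says that strand was used in counting. Acad9 is related to Acadvl and is also an assembly factor of respiratory complex I. It was at 49.5, 48.2 and 48.5 CPM in WT and at 72.6, 72.2 and 72.9 CPM in SIRPα KO, with little spread within either group. The log2 fold change was 0.57 (SE 0.12, edgeR adjusted p = 0.0267), which fell to 0.23 with the correction (adjusted p = 0.353). Gm43079 shares 559 bases of exon with Acad9 on the same strand and had 27 to 56 reads per library.

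The window before the Acadl start in RefSeq (GRCm38.p6, chr1:66863310-66863559, minus strand) is shown for a dehydrogenase that fell, with the window before Hadhb (chr5:30155003-30155252, plus strand) for an oxidation gene that was not called. Capitals mark GGGCGG, the GC box bound by Sp1 factors, on either strand. It has 4 matches before Acadl and 2 before Hadhb, and 32.7% of all windows hold it, as do those of 23 members.
Acadl: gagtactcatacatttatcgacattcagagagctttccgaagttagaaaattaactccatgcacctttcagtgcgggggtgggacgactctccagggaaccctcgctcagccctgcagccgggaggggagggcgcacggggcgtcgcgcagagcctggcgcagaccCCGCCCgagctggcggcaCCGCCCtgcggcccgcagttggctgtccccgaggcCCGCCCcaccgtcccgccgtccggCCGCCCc
Hadhb: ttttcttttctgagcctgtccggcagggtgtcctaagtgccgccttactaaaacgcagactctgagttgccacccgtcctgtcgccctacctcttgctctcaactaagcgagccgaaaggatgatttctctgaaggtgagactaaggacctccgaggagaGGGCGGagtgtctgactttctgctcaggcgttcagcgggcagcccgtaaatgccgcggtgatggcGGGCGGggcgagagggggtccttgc

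Hadha and Hadhb encode the subunits of the mitochondrial trifunctional protein, which carries out the later steps for long chains. They lie head to head on chromosome 5, with 272 bases between their RefSeq starts, and so share most of the printed window. Hadha was at 129, 126 and 107 CPM in WT and 135, 136 and 131 CPM in SIRPα KO, with a log2 fold change of 0.15 (edgeR adjusted p = 0.405). Hadhb was at 220.1, 206 and 169 CPM in WT and 244, 222 and 232 CPM in SIRPα KO, with a log2 fold change of 0.23 (edgeR adjusted p = 0.244). Neither pair of groups overlapped, and WT replicate 3 was the lowest library for both genes, but neither difference passed the test. For Hadha the direction turned with the correction (-0.095). Hadhb has a near copy, Gm9108, with 34 to 55 reads per library.

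Thiolases close the turn by releasing acetyl-CoA. Acaa2, the mitochondrial 3-ketoacyl-CoA thiolase (ENSMUSG00000036880.10, chromosome 18), was at 78.3, 76.5 and 76.5 CPM in WT and at 52.0, 50.2 and 51.1 CPM in SIRPα KO. The log2 fold change was -0.59 (SE 0.12, edgeR adjusted p = 0.0247) and -0.33 with the correction (adjusted p = 0.125). Acaa1a, the peroxisomal thiolase (ENSMUSG00000036138.16, chr9:119339676-119350299), was at 72.8, 74.4 and 79.2 CPM in WT and at 46.3, 52.0 and 57.7 CPM in SIRPα KO. Its log2 fold change of -0.54 (SE 0.14, edgeR adjusted p = 0.0447) was -0.15 with the correction (adjusted p = 0.488), and the adjusted p was 0.0684 without WT replicate 1 and 0.0577 without WT replicate 2. Acaa1b is 96.6% identical over 1428 bases and had 8 to 36 reads, and exons of Myd88 overlap those of Acaa1a by 290 bases on the other strand. For both thiolases every KO library was below every WT library, and neither passed with the correction. With the longest transcript in place of the principal one, Acaa1a was at -0.57 (edgeR adjusted p = 0.0513) and Acaa2 at -0.26 (0.229). The corrected value of Acaa1a thus depended on the transcript used for its length.

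The remaining oxidation members were not called without the correction. Decr1, the reductase needed for polyunsaturated chains, was at 28.8, 35.8 and 42.1 CPM in WT and 23.3, 23.2 and 21.8 CPM in SIRPα KO. The difference on the log2 scale was -0.64 (edgeR adjusted p = 0.0600) and -0.98 with the correction (adjusted p = 0.0399), and it was called without WT replicate 1 (edgeR adjusted p = 0.0455). Of the 3 proteins of electron transfer to ubiquinone, Etfa was at 182, 152 and 176 CPM in WT and 158, 162 and 159 CPM in SIRPα KO (log2 fold change -0.091, edgeR adjusted p = 0.609). Its partner Etfb had a log2 fold change of -0.55 (edgeR adjusted p = 0.0527) without overlap, which was 0.091 with the correction, and with 893 bases it has the shortest transcript of the members. It was called without WT replicate 2 or 3 (edgeR adjusted p = 0.0358 and 0.0172). Exons of Gm45233 and Etfb share 617 bases. Etfdh, the ubiquinone oxidoreductase, was at 0.31 with overlap. Echs1, Hadh, Eci1 and Eci2, which hydrate, dehydrogenate or isomerise the chain, had log2 fold changes of -0.35, -0.21, -0.017 and -0.077.

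**Figure D4:**
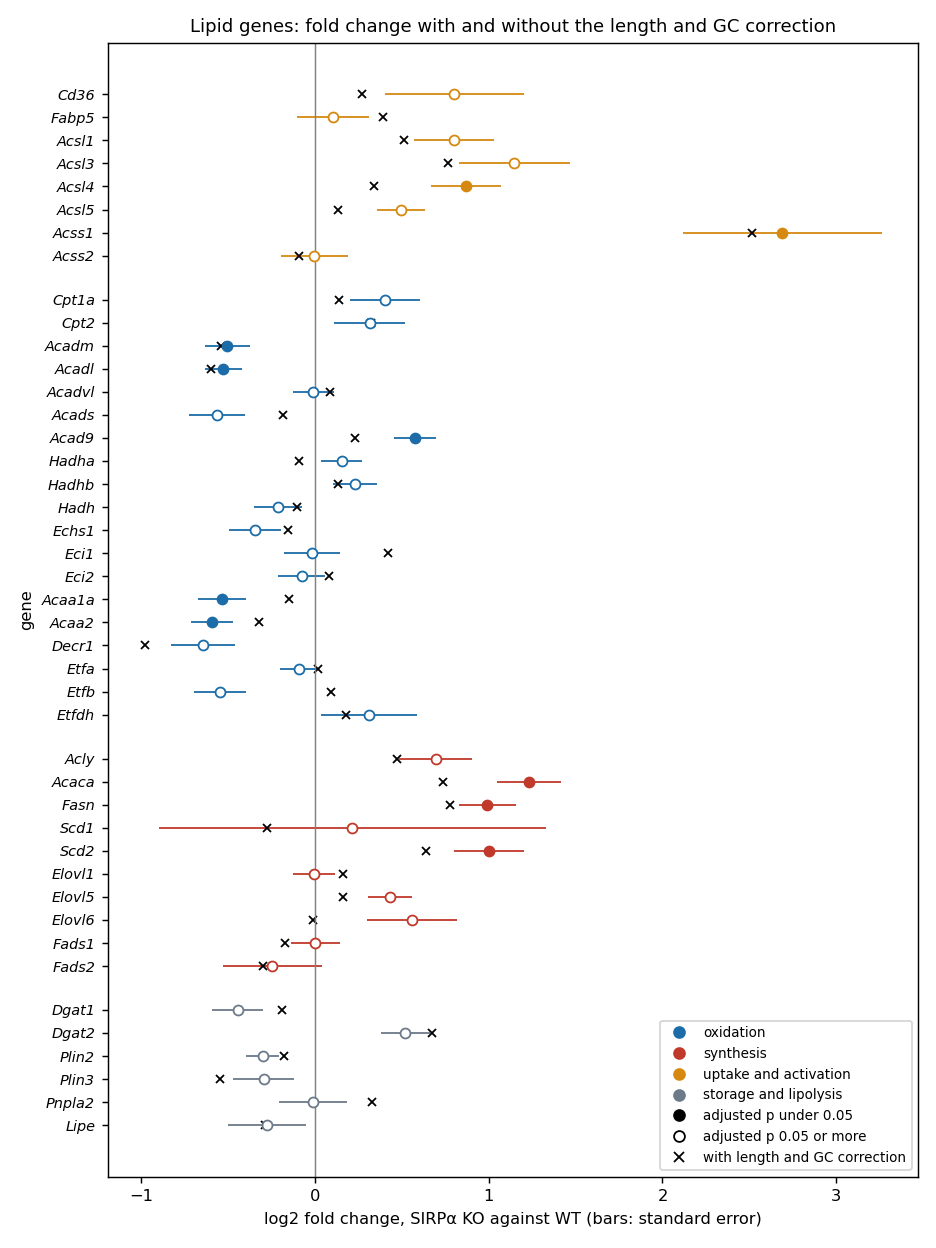
Log2 fold change of the 43 members, SIRPα KO against WT, with its SE, grouped by role; filled points had an adjusted p under 0.05 and crosses give the value with the length and GC correction. Acaca, Fasn and Scd2 stay above 0 with the correction, Acadl and Acadm stay below 0 at -0.60 and -0.54, and Etfb moves from -0.55 to 0.091.

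Activation genes were higher in SIRPα KO for 5 of 6 members, and 2 were called, with a median log2 fold change of 0.83. Over the 8 genes of uptake and activation the median was 0.80, and with the correction it was 0.36 and Acss1 was the 1 gene called. The median of the 6 activation genes was then 0.43. Acsl4, the acyl-CoA synthetase that prefers arachidonate and other polyunsaturated chains (ENSMUSG00000031278.12, chrX:142317993-142390535), was at 135, 178 and 99.2 CPM in WT and at 266, 247 and 240.3 CPM in SIRPα KO. The groups did not overlap and the log2 fold change was 0.87 (SE 0.20, edgeR adjusted p = 0.0347). With the correction it was 0.34 (adjusted p = 0.0798), and without WT replicate 1 the adjusted p was 0.0700. The other long-chain synthetases had log2 fold changes of 1.15 (Acsl3, edgeR adjusted p = 0.0551), 0.80 (Acsl1, 0.0613) and 0.49 (Acsl5, 0.0549), all without overlap and all short of the threshold, and 0.77, 0.51 and 0.13 with the correction. These calls changed with single WT libraries, as Acsl3 and Acsl5 were called without WT replicate 3 (edgeR adjusted p = 0.0137 and 0.0165), Acsl3 also without WT replicate 2 (0.0362) and Acsl1 without WT replicate 1 (0.0431). Acsl5 had the highest level of the 4 per length, at 48.4 ± 7.6 CPM per kilobase in WT and 68.1 ± 4.0 in SIRPα KO (SD, n = 3).

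Acss1, the mitochondrial acetyl-CoA synthetase that activates free acetate, had the largest fold change among the called members from a low level. It had 8, 21 and 7 reads in WT and 84, 122 and 61 reads in SIRPα KO, or 0.46, 1.5 and 0.46 CPM against 5.4, 6.4 and 3.8 CPM. The log2 fold change was 2.69 (SE 0.57, edgeR adjusted p = 0.0281) and 2.52 with the correction (adjusted p = 0.0330). It was larger, at 3.47, without WT replicate 2, and the adjusted p was 0.0554 without WT replicate 1. The gene lies on chromosome 2 (chr2:150618105-150668500), as does Sirpa (chr2:129592835-129632228), and whether the strain background around the KO allele takes part in the difference was not tested. Acss2, the cytosolic enzyme for the same reaction, was at 29.3, 27.2 and 19.6 CPM in WT and 25.8, 24.7 and 25.5 CPM in SIRPα KO (log2 fold change -0.0038).

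The uptake genes overlapped between groups. Fabp5, the fatty acid binding protein of many immune and epithelial cells, was at 98.0, 122 and 178 CPM in WT and 137, 146 and 145 CPM in SIRPα KO (log2 fold change 0.10, edgeR adjusted p = 0.766). Cd36, the fatty acid translocase, was at 14.4, 17.0 and 44.0 CPM in WT and 38.2, 44.0 and 49.1 CPM in SIRPα KO. WT replicate 3 alone reached the KO range, and the log2 fold change was 0.80 (edgeR adjusted p = 0.207) and 0.27 with the correction. Without that library it was 1.49 and was called (edgeR adjusted p = 0.0040). In WT, Cd36 was highest in the library with the highest sum of macrophage markers, a cell type whose CD11b and CD11c the sort selected against. All 7 markers of that list were in the table and summed to 494, 411 and 891 CPM in WT and 477, 737 and 737 CPM in SIRPα KO, most of it from Chil3 (451, 371 and 765 CPM in WT). Lyz2 was at 21.1, 22.8 and 82.1 CPM in WT and 47.9, 72.4 and 64.5 CPM in SIRPα KO. Marco was at 0, 0 and 6.5 CPM in WT and 1.2, 0.63 and 0.56 CPM in SIRPα KO. Csf1r ran the other way in WT, at 6.5, 4.3 and 3.2 CPM. Lpl, a lipase that macrophages also express, was at 20.5, 24.6 and 69.1 CPM in WT and 44.4, 44.8 and 39.0 CPM in SIRPα KO. The part of such cells in the Cd36 values was not tested.

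Storage and lipolysis genes had no called member, with 3 of 6 at an unadjusted p under 0.05 and a median log2 fold change of -0.29. With the correction the median was -0.18 and Dgat2 was called. Plin2, which coats lipid droplets, had by far the highest level of the 43 per length, at 694 ± 67.9 CPM per kilobase in WT and 563 ± 10.6 in SIRPα KO (SD, n = 3). Its CPM were 1408, 1165 and 1355 in WT and 1044, 1083 and 1059 in SIRPα KO, without overlap. The log2 fold change of -0.30 had an edgeR adjusted p of 0.0804 (0.143, 0.0331 and 0.0582 without WT replicates 1, 2 and 3). With the correction Plin2 was at -0.18 (adjusted p = 0.180). The acyltransferases of the last step of triglyceride synthesis pointed in opposite directions. Dgat1 was at 129, 148 and 106 CPM in WT and 88.9, 92.0 and 100.4 CPM in SIRPα KO (log2 fold change -0.45, edgeR adjusted p = 0.0876), and was at -0.19 with the correction (adjusted p = 0.499). Dgat2 was at 147, 119 and 163 CPM in WT and 216, 209 and 191 CPM in SIRPα KO, with a log2 fold change of 0.52 (edgeR adjusted p = 0.0508) and 0.67 with the correction (adjusted p = 0.0206). Neither gene overlapped between groups, and both were called without WT replicate 3 (edgeR adjusted p = 0.0135 and 0.0121).

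The lipases were not called. Pnpla2, the adipose triglyceride lipase, was at 51.1, 84.1 and 66.9 CPM in WT and 74.0, 64.7 and 61.5 CPM in SIRPα KO (log2 fold change -0.013, edgeR adjusted p = 0.972), with overlap. Lipe, the hormone-sensitive lipase, was at -0.27 and Plin3, another droplet coat protein, at -0.30, both with overlap. None of the adipocyte markers Adipoq, Plin1, Cidec and Lep has a column under that name in the count table.

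**Figure D5:**
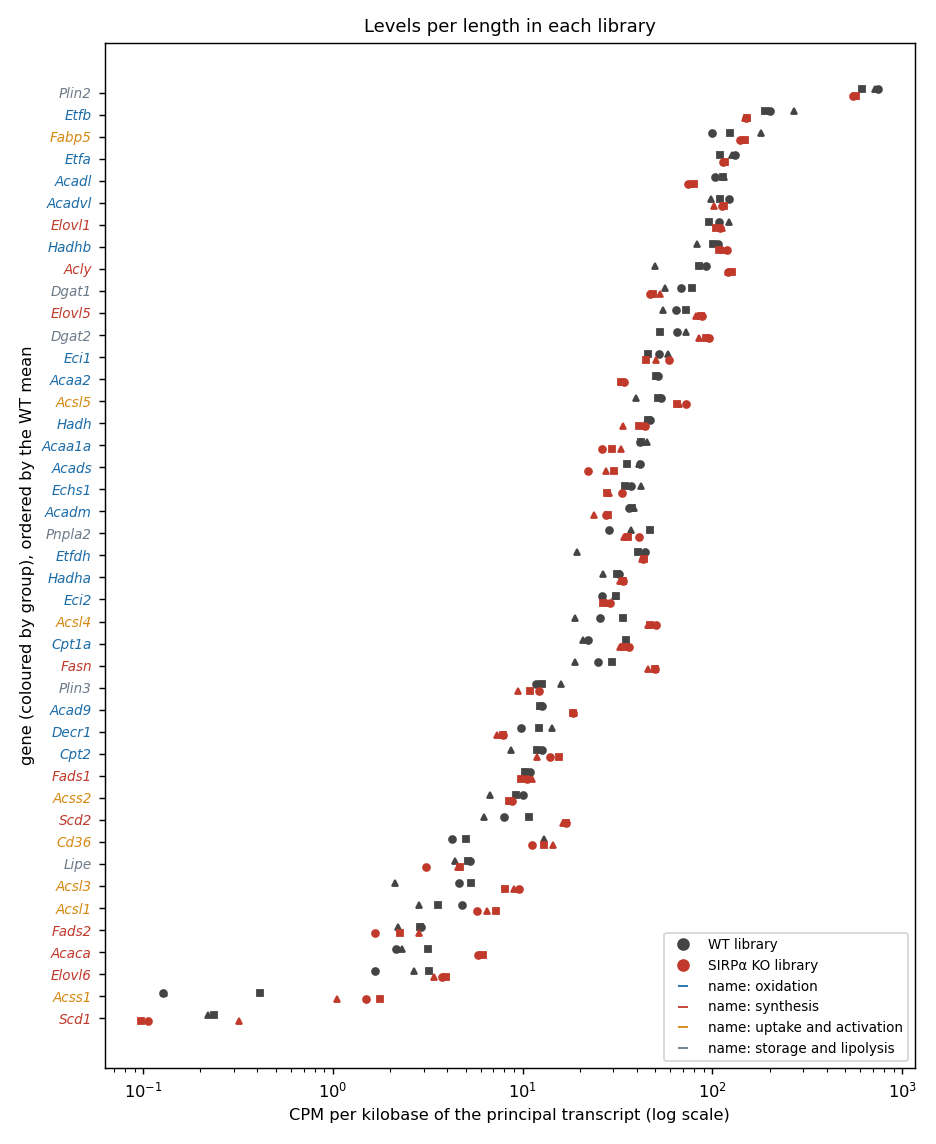
Level of each member in every library as CPM per kilobase of its principal transcript, on a log axis, ordered by the WT mean, with WT in grey and SIRPα KO in red and gene names coloured by group. Plin2 is highest at 694 in WT, Acss1 (0.22 in WT) and Scd1 (0.15) are lowest, and a library with 0 reads has no point.

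Per length, the order of abundance in WT placed Plin2 first, followed by Etfb (220 ± 42.8 CPM per kilobase), Fabp5 (135 ± 41.7), Etfa (122 ± 11.6), Acadl (111 ± 7.0) and Acadvl (110 ± 11.9) (SD, n = 3). The SDs of Fabp5, Etfa, Acadl and Acadvl overlap in WT. In SIRPα KO, Acadl was at 76.6 ± 3.1 and Acadvl at 109.6 ± 6.7 CPM per kilobase, so that these dehydrogenases, level in WT, were apart by more than their SDs. Fasn was at 24.4 ± 5.3 CPM per kilobase in WT and 48.5 ± 2.6 in SIRPα KO, and Acaca at 2.5 ± 0.55 and 6.0 ± 0.21.

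Of 114 other genes of these pathways, 96 are in the table, 88 were tested and 10 were called, or 11.4%, beside 11.7% of all genes. With the correction 7 of the 88 were called, 4 higher and 3 lower, where 8.46% of all tested genes passed. Of these 7, 4 were among the 10. Me1, the malic enzyme that supplies NADPH for synthesis, rose from 40.8 to 48.1 CPM in WT to 72.6 to 87.9 CPM in SIRPα KO (log2 fold change 0.82, edgeR adjusted p = 0.0175), and so did Hacd3, a dehydratase of chain elongation, from 448 to 582 CPM to 873 to 1027 CPM (0.85, 0.0131). Both were called with the correction as well, at adjusted p values of 0.0367 and 0.0077. Tecr, the reductase of the same elongation cycle, fell by 0.64 on the log2 scale (edgeR adjusted p = 0.0228), and its corrected value was -0.11. Gpat4, an acyltransferase of glycerolipid synthesis, rose by 0.41 (edgeR adjusted p = 0.0475), and its corrected value was 0.051.

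Among other oxidation genes, Ech1, an isomerase of unsaturated chains, fell by 0.60 on the log2 scale and Hsd17b10, a mitochondrial dehydrogenase of short chains, fell by 0.61 (adjusted p = 0.0178 and 0.0350 from edgeR). Acadsb, the dehydrogenase of short branched chains, rose by 0.93 (edgeR adjusted p = 0.0409). Dbi, the acyl-CoA binding protein, fell by 0.89 (edgeR adjusted p = 0.0189). None of these 4 was called with the correction. A further gene of mitochondrial oxidation, 1 of the 14 listed and not called without the correction, was called lower with it. Mlycd, which removes malonyl-CoA, was at -0.79 with overlap (edgeR adjusted p = 0.203).

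The transcription factors of these pathways were not called. Srebf1 was at 218, 199 and 185 CPM in WT and 193, 196 and 173 CPM in SIRPα KO (log2 fold change -0.098, edgeR adjusted p = 0.582). Srebf2 had a log2 fold change of 0.14 (edgeR adjusted p = 0.488). Scap, which escorts these factors to the Golgi, rose from 90.6 to 105 CPM in WT to 133 to 144 CPM in SIRPα KO (0.50, edgeR adjusted p = 0.0348, and 0.47 with the correction, 0.0357). Pparg was well expressed, at 201, 232 and 201 CPM in WT and 196, 184 and 200.4 CPM in SIRPα KO (log2 fold change -0.13, edgeR adjusted p = 0.456). Ppard was at 1.1 to 2.5 CPM over all libraries, Ppargc1a had no reads in 5 of the 6 libraries and Ppara has no column under that name in the count table. Stk11, the kinase LKB1 upstream of AMPK, fell by 0.74 on the log2 scale (edgeR adjusted p = 0.0289) and was at -0.56 with the correction (0.0477).

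Marker sums of some other cells differed between the groups. Those of B cells, T cells and endothelial cells did not overlap. Those of alveolar type 2 cells, eosinophils and mast cells, and macrophages did. Of 6 B cell markers, 5 are in the table, and they summed to 209, 192 and 112 CPM in WT and 16.9, 35.7 and 33.1 CPM in SIRPα KO. Of 5 T cell markers, 4 are in the table, with sums of 17.8 to 22.1 CPM in WT and 4.7 to 5.4 CPM in SIRPα KO, mostly from Cd3g. Cd3d and Cd3e overlapped between groups, and Cd4 was at 0 in every WT library. Fewer such cells and less RNA per cell cannot be told apart in bulk libraries. The 5 alveolar type 2 markers summed to 22.5 to 54.5 CPM in WT and 41.2 to 46.2 CPM in SIRPα KO, almost all from Etv5, and Sftpc was at 0 in 5 of 6 libraries. The 2 endothelial markers in the table, of 4, summed to 16.2 to 27.4 CPM in WT and 40.8 to 43.8 CPM in SIRPα KO, nearly all from Pecam1. The eosinophil and mast cell markers, 4 of 4 in the table, summed to 7.6 to 21.9 CPM in WT and 0.87 to 28.3 CPM in SIRPα KO, highest in SIRPα KO replicate 1, where Epx was at 9.7 CPM against 0 elsewhere. Their part in the lipid gene differences was not tested.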

How the data were processed

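RNAseq libraries of cultured lung ILC2s, 3 WT and 3 SIRPα KO, were analysed as labelled. The authors made cDNA from 10 pg of RNA with a kit for very small samples, aligned the reads with STAR to mm10 with GENCODE M21 in Partek, and deposited estimated counts per gene, not scaled for depth. The submitters' processing notes name STAR 2.7.8 and Partek 10.0. The use of strand, and the handling of reads on overlapping or duplicated genes, are not given in the sources used here. Between 56.9% and 60.7% of values per library were exactly whole (no tolerance), and all were rounded. Amplified reads without molecular identifiers are not independent molecules. The lowest library had 13980499 reads. The record of columns names 176 genes singly, and the other 17655 hold the same unit.

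Genes were kept with edgeR's filterByExpr (10 reads in a library of median size, 15 in total), scaled by TMM and tested on genotype with edgeR's quasi-likelihood test and Benjamini-Hochberg adjustment over 13623 genes, at 0.05. Every adjusted p in the text is from this test unless another is named. The correction used splines with 5 degrees of freedom for length and GC content of the principal transcript as offsets, fitted on 9001 genes of mean log2 CPM 3 or more. Alternatives were DESeq2, other scalings and filters, a looser threshold, a replicate block, libraries of one code summed and leaving out each library. Same-numbered libraries did not deviate together (correlations -0.14, 0.18 and 0.031), so the numbers were not taken as pairs. When 200 genes were changed in simulated data, the edgeR fit recovered 150. R 4.3.3, edgeR 4.0.16, limma 3.58.1, DESeq2 1.42.0, BLAST+ 2.17.0 and matplotlib 3.10.9 were used.

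Every called member and 20 members fixed by name, 24 genes in all, were given in full, with those members that stood close to the threshold added after their values were seen. Of the other pathway genes, the called ones and 10 fixed by name were to be named, of which 1 is not reported here. The members and lists were chosen with earlier results of these data known.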

Additional observations from a re-analysis of the deposited data

How the results depend on the processing

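Over 24 named members and 17 settings, 303 values kept direction and side of the threshold, 63 kept only direction and lost the call, 10 gained it and 31 changed sign, and 16 members, the 10 called ones among them, had one sign in every setting. Leaving out 1 library gave 0 to 18 called members (oxidation 0 to 6, synthesis 0 to 5, uptake and activation 0 to 5, storage and lipolysis 0 to 2, other pathway genes 0 to 18), with 0 without any one SIRPα KO library, and the cause was not tested. Over all tested genes the same fits called 16 to 2606. With libraries of one code summed, all these counts were 0, among 10 genes called of 14581, a design with fewer samples. With the replicate block, 5 members were called (oxidation 0), all of them among the 10, and 6 other pathway genes, where 1118 of all 13623 genes passed. DESeq2 called 19 members (oxidation 8, synthesis 5, uptake and activation 5, storage 1) and 19 other pathway genes, where 3170 of 12977 genes passed. At an adjusted p under 0.1, 21 members passed (oxidation 8, synthesis 5, uptake and activation 5, storage 3) and 19 other pathway genes. The share of all genes at this looser threshold is not given, so these counts cannot be set against it. Scaling by upper quartiles took the median log2 fold change over all genes to -0.13 and gave 8 oxidation and 1 storage member, and library totals 1 storage member. Over all 13623 genes these scalings called 1713 and 1561. Without a filter 3 oxidation members were called, and with a filter at 1 CPM 4 of uptake and activation, where 1151 of 17831 and 1755 of 12507 genes passed. With the length and GC correction there were 3 oxidation, 1 uptake and activation and 1 storage member, and with the longest transcript, a version chosen after seeing the data, 2, 1 and 1. Over all 13623 genes these fits called 1152 and 1203. Acadm was not called with the longest transcript (log2 fold change -0.44, edgeR adjusted p = 0.0529).

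The sign changes concerned 8 members, none of them called, and the cause was not tested. Acadvl was at 0.012 with no filter, 0.047 with codes summed, 0.084 and 0.17 with the corrections, -0.077 to 0.076 with 1 library left out and 0.014 in DESeq2. Hadha was at -0.095 and -0.0087 with the corrections, Etfa at 0.015 and 0.076, Hadhb at -0.19 with the longest transcript and Elovl6 at -0.011 with the principal one. Scd1, with at most 25 reads, was at -0.032 with codes summed, -0.28 and -0.21 with the corrections, and -0.55 to 0.67 with 1 library left out. Pnpla2 was at 0.0097 with no filter, 0.010 with the block, 0.057 with codes summed, 0.33 and 0.15 with the corrections, -0.17 to 0.17 with 1 library left out, and 0.010 in DESeq2. Fabp5 was at -0.015 with upper quartile factors, -0.014 with codes summed, -0.067 with the longest transcript and -0.072 to 0.38 with 1 library left out.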
